A study of Mus musculus with 5 samples.

Results

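The genes described here encode subunits of the NADPH oxidases (Cybb, Cyba, Ncf1, Ncf4 and Nox4) and 3 other enzymes that release superoxide or hydrogen peroxide (Xdh, Maoa and Maob). They were listed by name as oxidant sources, and each was represented by its probe set, among those annotated with exactly 1 gene symbol, that had the highest mean over all 5 arrays. All 8 genes had 1 such probe set each, out of 22180 genes on the array, and all 8 lay above the filter on dim genes, a mean log2 signal of 4.06, which left 15528 genes tested.

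Heart RNA was measured in 2 Akita samples (replicates 1 and 3) and 3 wild type samples (replicates 3, 4 and 5), all from male mice of the C57BL/6 background aged 12 weeks. Akita mice carry a mutation in 1 copy of the insulin gene Ins2 and serve as a model of type 1 diabetes, and the mutation is present in every tissue, not in the heart alone. The labels do not say whether the samples came from separate animals or which chambers were taken. The p-values therefore reflect how far these samples differed within groups, some of which may be technical, and with so few arrays every value is imprecise.

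NADPH oxidases are membrane enzymes that carry electrons from NADPH across a membrane to oxygen. The form that phagocytes use to kill microbes is built on a catalytic subunit (the product of Cybb) and a stabilising partner (the product of Cyba), and it is silent until cytosolic subunits such as those encoded by Ncf1 and Ncf4 join it with a Rac GTPase. The NOX4 enzyme also needs the Cyba product but is active without the cytosolic subunits and releases mainly hydrogen peroxide. Xanthine dehydrogenase makes urate at the end of purine breakdown and can pass its electrons to oxygen, and the monoamine oxidases of the outer mitochondrial membrane release hydrogen peroxide when they degrade noradrenaline, serotonin and related amines. These enzymes are often studied in the diabetic heart as sources of oxidants.

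All 8 markers listed for ventricular myocytes were bright, with mean log2 signals of 8.52 to 13.18, as the label heart tissue states. The list does not show which chambers were taken. In Akita 7 of these 8 markers lay lower, 5 without overlap (median difference -0.12). Of all genes tested, 56.5% lay below 0 and 19.9% lay lower without overlap. The summed linear signal of the 8 markers was 42122 to 43142 in Akita and 44527 to 46320 in wild type hearts. All 4 adipocyte markers tested lay higher without overlap, as did 9.89% of all genes tested, and 0 passed a limma adjusted p of 0.05. Relative to the wild type mean, their median stood at 0.37 and 0.87 in Akita replicates 1 and 3. They summed to a linear signal of 164 to 278 in Akita and 114 to 119 in wild type hearts. Among them Ucp1 had 5.35 and 6.82 in Akita replicates 1 and 3. Its wild type values, 4.36, 4.21 and 4.17 in replicates 3, 4 and 5, lay close to the filter value. The 2 further markers, Adipoq and Lep, lay under the filter, and their Akita and wild type values overlapped. The part of these shifts in the results on the 8 genes was not tested. Akita replicate 3 stood apart in atrial myocyte markers, whose list median relative to the wild type mean was 2.36 log2 units in that array and -0.18 in Akita replicate 1. Results are therefore also given without Akita replicate 3. The 51 genes that passed a limma adjusted p of 0.05 were 0.328% of those tested, and the median difference over all genes tested was -0.03 (log2, Akita minus wild type).

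None of the 8 genes passed the adjusted threshold (0 of 8, with a background of 0.328%), and with limma 1 of 8 had an unadjusted p under 0.05, against 13.6% of all genes tested. The log2 difference lay below 0 in 6 of the 8 genes and above 0 in 2, against 56.5% of all genes tested below 0 and 43.5% above, and the median over the 8 genes was -0.09. The number below 0 was 7 without Akita replicate 3, 4 without Akita replicate 1 and 4 with arrays centred over the genes tested, and 0 of 8 passed in each case. Both Akita values lay under all wild type values in 2 of the 8 genes, Cyba and Ncf4, a share near the 19.9% of all genes tested for which this held. In Cybb, Nox4 and Maoa Akita replicate 1 lay below and Akita replicate 3 above all wild type values. In Ncf1 the Akita hearts also lay on opposite sides, in the reverse order. The 95% interval of the difference included 0 in 7 of the 8 genes and differed in width between them, and each is given with its gene.

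**Figure D1:**
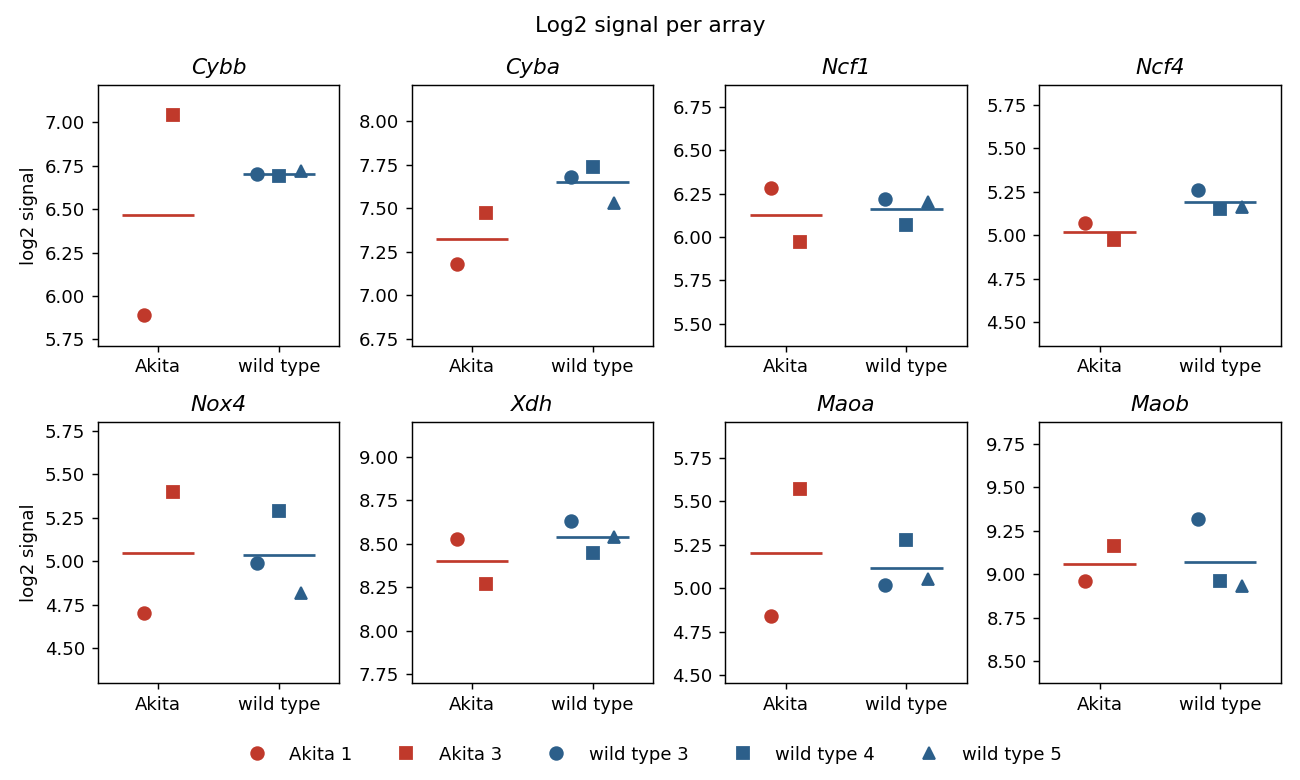
Log2 signal of each gene in each array, Akita (red) left and wild type (blue) right, with symbols for replicates and a line at the group mean; every panel spans 1.5 log2 units. The wild type arrays of Cybb sit within 0.03 of each other at 6.69 to 6.72, while the Akita arrays sit at 5.89 and 7.04, and both Akita arrays of Cyba and Ncf4 sit under all 3 wild type arrays.

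Cyba encodes p22phox, the small membrane partner that stabilises several NADPH oxidase catalytic subunits. Its log2 signal was 7.18 and 7.47 in Akita replicates 1 and 3, against 7.68, 7.74 and 7.53 in wild type replicates 3, 4 and 5. Both Akita hearts lay below every wild type heart, by 0.06 at the closest point. The groups failed to overlap in 2 of the 8 genes, both lower in Akita, where 29.7% of all genes tested did not overlap 19.9% with Akita lower and 9.89% with Akita higher. The mean was 7.33 ± 0.21 in Akita (SD, n = 2) and 7.65 ± 0.11 in wild type (SD, n = 3). The log2 difference was -0.33 (SE 0.13, 95% interval -0.64 to -0.01), which is 0.798 of the wild type level. It missed the threshold over all genes (limma adjusted p = 0.352), and 14.4% of the genes tested differed by more in either direction. Without Akita replicate 3 the difference was -0.47 (adjusted p = 0.160) and without Akita replicate 1 it was -0.18 (adjusted p = 0.729).

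Cybb encodes NOX2, the catalytic subunit of the phagocyte oxidase. Its log2 signal was 5.89 in Akita replicate 1 and 7.04 in Akita replicate 3, against 6.70, 6.69 and 6.72 in wild type replicates 3, 4 and 5. Akita replicate 1 thus lay below and Akita replicate 3 above a narrow wild type range. The Akita arrays were 1.15 log2 units apart, and only 0.374% of the genes tested had a wider gap between them, the median gap being 0.19. A wild type range as narrow as that of Cybb was found in 320 genes (2.06%). Both features together, a gap at least as wide and a wild type range at least as narrow, held for 2 genes, Cybb included. Both limits were set at the values of Cybb itself, so this count is a description only. The log2 difference between group means was -0.24 (SE 0.29, 95% interval -0.92 to 0.44, limma adjusted p = 0.767). It was -0.81 without Akita replicate 3 (adjusted p = 0.0963) and 0.34 without Akita replicate 1 (adjusted p = 0.423), so its direction rested on which Akita array was kept.

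Nox4, the catalytic subunit of the constitutively active oxidase, was among the dimmer genes and split the Akita hearts in the same order as Cybb. Its log2 signal was 4.70 and 5.40 in Akita replicates 1 and 3, against 4.99, 5.29 and 4.82 in wild type replicates 3, 4 and 5. The wild type range lay inside the Akita values. The log2 difference was 0.02 (SE 0.23, 95% interval -0.51 to 0.54, limma adjusted p = 0.982), and its sign turned in 6 of the 13 alternative settings, among them -0.33 without Akita replicate 3 and -0.025 with arrays centred on their medians. Some of these 13 settings, such as another threshold, could not change the difference. Without Akita replicate 1 it was 0.37.

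The cytosolic subunits varied less. Ncf4 encodes p40phox, which binds a membrane phosphoinositide and sustains oxidase activity on phagosomes. Its log2 signal was 5.07 and 4.97 in Akita replicates 1 and 3, against 5.26, 5.15 and 5.16 in wild type replicates 3, 4 and 5. Both Akita hearts again lay below every wild type heart, by 0.08 at the closest point. The log2 difference was -0.17 (SE 0.11, 95% interval -0.43 to 0.09, limma adjusted p = 0.542). It was -0.12 without Akita replicate 3, -0.22 without Akita replicate 1 and -0.08 with arrays centred over the genes tested. Ncf1 encodes p47phox, the organiser whose phosphorylation starts assembly. Its log2 signal was 6.28 and 5.97 in Akita replicates 1 and 3, against 6.22, 6.07 and 6.20 in wild type replicates 3, 4 and 5, so that the wild type values lay between the Akita values. The log2 difference was -0.04 (SE 0.13, 95% interval -0.35 to 0.27, limma adjusted p = 0.931). It was 0.12 without Akita replicate 3, -0.19 without Akita replicate 1, and 0.06 with arrays centred over the genes tested.

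Xdh encodes xanthine dehydrogenase, an enzyme that the heart carries mainly in its endothelial cells. Its log2 signal was 8.53 and 8.27 in Akita replicates 1 and 3, against 8.63, 8.45 and 8.54 in wild type replicates 3, 4 and 5. Akita replicate 1 lay within the wild type range and Akita replicate 3 below it. The log2 difference was -0.14 (SE 0.13, 95% interval -0.44 to 0.16, limma adjusted p = 0.676), or -0.01 without Akita replicate 3 and -0.27 without Akita replicate 1.

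Maoa and Maob encode the monoamine oxidases A and B. They are neighbours on the X chromosome, with 0 genes listed between them in the RefSeq annotation of assembly GRCm38.p6, but their signals did not follow each other over the arrays. The log2 values of Maoa were 4.84 and 5.57 in Akita replicates 1 and 3, against 5.02, 5.28 and 5.05 in wild type replicates 3, 4 and 5. As in Cybb and Nox4, Akita replicate 1 lay below and Akita replicate 3 above all wild type hearts. The log2 difference of Maoa was 0.09 (SE 0.21, 95% interval -0.41 to 0.59, limma adjusted p = 0.895), or -0.28 without Akita replicate 3 and 0.45 without Akita replicate 1. The log2 values of Maob were 8.96 and 9.16 in Akita replicates 1 and 3, against 9.32, 8.96 and 8.93 in wild type replicates 3, 4 and 5. Both Akita values of Maob lay within the wild type range, which wild type replicate 3 widened to 0.39. The log2 difference of Maob was -0.01 (SE 0.15, 95% interval -0.37 to 0.35, limma adjusted p = 0.985), with a sign that turned in 5 of 14 alternative settings, and it was -0.11 without Akita replicate 3 and 0.09 without Akita replicate 1. Here too, some of the settings could not change the difference.

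**Figure D2:**
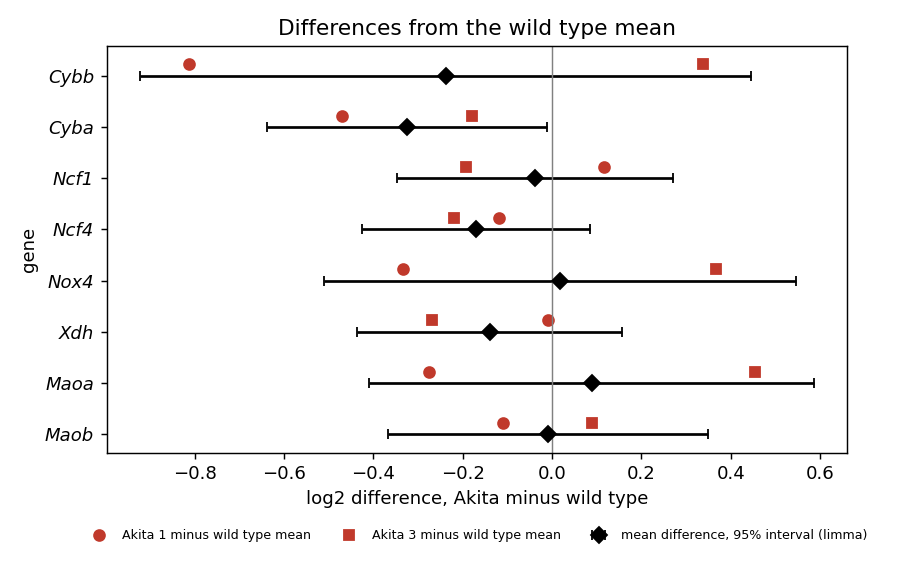
Log2 difference from the wild type mean for each gene: black diamonds give the difference of the group means with its 95% interval from limma, red circles Akita replicate 1 and red squares Akita replicate 3. The interval of Cyba, from -0.64 to -0.01, is the only one of the 8 that does not include 0 before adjustment over all genes. The circles and squares of Cybb, Nox4 and Maoa lie on opposite sides of 0, as do those of Ncf1 and, close to 0, Maob.

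The pattern of Cybb, Nox4 and Maoa, with Akita replicate 1 below and Akita replicate 3 above every wild type array, was shared by 3 of the 8 genes and by 1117 genes (7.19%) of all those tested. Relative to the wild type mean, Cybb stood at -0.81 and 0.34, Nox4 at -0.33 and 0.37, and Maoa at -0.28 and 0.45 in Akita replicates 1 and 3. In 5 of the 8 genes Akita replicate 3 lay above Akita replicate 1, as it did in 58.5% of all genes tested, and the other 3, Ncf1, Ncf4 and Xdh, ran the other way. Likeness was measured as the root mean square distance between mean-centred log2 values over the 5 arrays, given as a description. Among pairs of the 8 genes, the closest were Ncf1 and Xdh (0.06), Ncf4 and Xdh (0.06) and Nox4 and Maoa (0.09), and the farthest were Cybb and Ncf1 (0.47). Cybb and Cyba, whose products form 1 complex, were 0.29 apart.

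**Figure D3:**
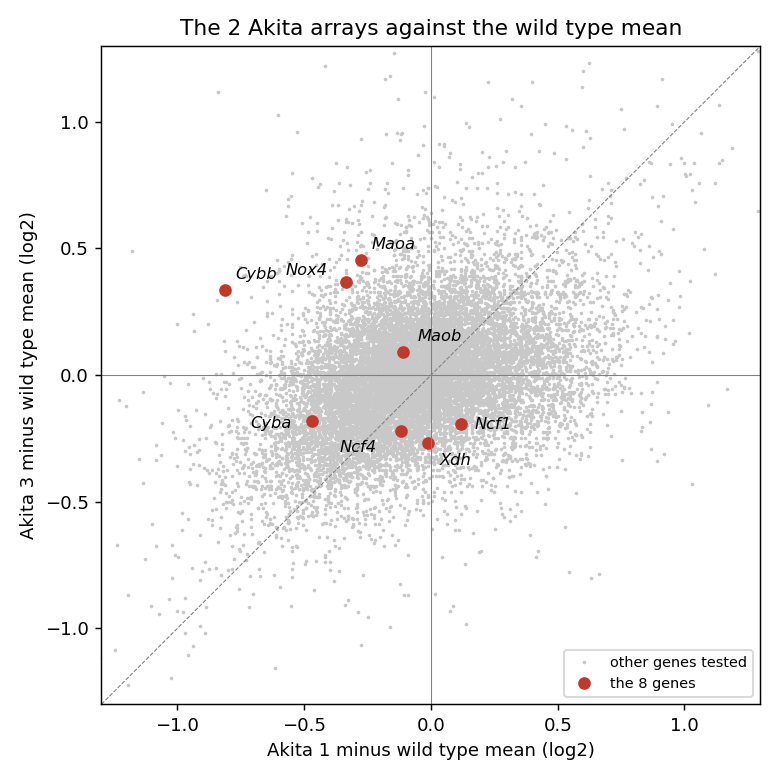
Each of the 15528 genes tested (grey) and the 8 oxidant source genes (red) by log2 signal minus the wild type mean in Akita replicate 1 (horizontal) and Akita replicate 3 (vertical); 73 genes lie outside the plotted range of 1.3 and the dashed line marks equal values. Cybb, Nox4 and Maoa lie at the upper left, with Cybb at -0.81 and 0.34, while Cyba and Ncf4 lie under 0 in both arrays.

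Among the other genes, the closest to Cybb was Slc7a7, an amino acid transporter subunit, at a distance of 0.07, with 4.85 and 5.93 in Akita replicates 1 and 3, against 5.79, 5.71 and 5.69 in wild type replicates 3, 4 and 5. The next was the growth factor receptor gene Fgfr3 (0.07). For Cyba the closest were Phc3 (0.01) and Garem1 (0.01), and for Nox4 they were Zfp263 (0.04) and the death ligand gene Tnfsf10 (0.04). For Maoa the closest were Myof (0.04), a membrane repair gene, and Myh11 (0.05), the smooth muscle myosin heavy chain, which had 8.03 and 8.78 in Akita replicates 1 and 3, against 8.23, 8.48 and 8.38 in wild type replicates 3, 4 and 5. With 13842 genes compared over 5 arrays, near matches are found for most patterns, so these names describe the shape of the values only.

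The promoter sequences of the 3 genes that shared the split are shown because all 3 had Akita replicate 1 below and Akita replicate 3 above every wild type array. RefSeq promoter entries (build GRCm38.p6) were found for 5 of the 8 genes, and the 200 bases before the transcription start are printed 5′ to 3′ on the gene's strand, with matches in capitals. Searches on both strands used GGGCGG for the GC box, CCAAT for the motif named after these letters, TATAAA for the motif named after its first bases, and GAGGAA for the core bound by the myeloid factor PU.1. The Cybb stretch is chrX:9469325-9469524 on the minus strand, the Nox4 stretch chr7:87246449-87246648 on the plus strand and the Maoa stretch chrX:16619498-16619697 on the plus strand.
Cybb: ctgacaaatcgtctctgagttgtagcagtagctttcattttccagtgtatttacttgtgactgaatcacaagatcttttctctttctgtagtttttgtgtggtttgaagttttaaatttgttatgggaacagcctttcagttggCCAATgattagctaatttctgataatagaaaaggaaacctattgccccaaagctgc
Nox4: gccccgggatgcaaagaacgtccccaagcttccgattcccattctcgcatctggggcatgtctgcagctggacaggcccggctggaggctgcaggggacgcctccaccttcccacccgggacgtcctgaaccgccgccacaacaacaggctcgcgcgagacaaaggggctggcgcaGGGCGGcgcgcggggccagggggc
Maoa: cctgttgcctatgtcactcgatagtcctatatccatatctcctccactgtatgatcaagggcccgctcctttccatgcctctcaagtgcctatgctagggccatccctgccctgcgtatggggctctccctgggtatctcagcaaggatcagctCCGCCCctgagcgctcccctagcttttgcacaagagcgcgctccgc
The Cybb stretch was poor in G and C (36.5%, against a median of 53% over all promoters in the table) and held 1 CCAAT box at positions -56 to -52. The Nox4 stretch was rich in G and C (70%) and held 1 GC box at -24 to -19, and the Maoa stretch (58%) held 1 GC box on the opposite strand at -46 to -41. Over 32851 promoter windows of the same length, 31.0% held a GC box, 29.3% a CCAAT box, 19.0% the PU.1 core and 9.96% a TATA box. None of the 4 motifs was matched in all 3 stretches, and a motif that was not matched says only that its letters are not in this window.

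Phagocytes are the main site of the Cybb oxidase, so markers of these cells were set beside it. Of 15 macrophage and monocyte markers, 10 lay lower in Akita, 7 of them without overlap, and 0 passed over all genes. Of all genes tested, 56.5% lay below 0 and 19.9% lay lower without overlap. Cd68, a lysosomal macrophage gene, had 6.47 and 6.82 in Akita replicates 1 and 3, against 7.51, 7.56 and 7.40 in wild type replicates 3, 4 and 5 (limma adjusted p = 0.0773). Fcer1g, a signalling adaptor of Fc receptors, had a log2 difference of -0.86 (limma adjusted p = 0.125). These had the smallest p of the list, and 5 markers did not lie lower: Lyz2, Cd163 and Ccr2 differed by 0.12, 0.11 and 0.14, Mertk by 0.01 and Mrc1 by 0.00. The list median relative to the wild type mean was -0.38 and -0.07 in Akita replicates 1 and 3, against 0.12, -0.02 and -0.07 in wild type replicates 3, 4 and 5. The summed linear signal of the list was 2382 to 2693 in Akita and 2830 to 3124 in wild type hearts, with all 15 markers above the filter. In bulk tissue, fewer cells of a type and less RNA per cell cannot be told apart.

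Subtracting the macrophage list median from each array, a comparison chosen after the values were seen, left Cyba at -0.09 and -0.11 in Akita replicates 1 and 3, against -0.09, 0.11 and -0.05 in wild type replicates 3, 4 and 5. Akita replicate 1 then lay just inside the wild type range and Akita replicate 3 just below it. On that scale Cybb stood at -0.43 and 0.41 in Akita replicates 1 and 3, against -0.12, 0.01 and 0.09 in wild type replicates 3, 4 and 5. Ncf4 stood at 0.26 and -0.15 in Akita replicates 1 and 3, against -0.05, -0.02 and 0.04 in wild type, and Ncf1 at 0.50 and -0.12, against -0.06, -0.07 and 0.11. In Cybb, Ncf4 and Ncf1 the Akita arrays lay on both sides of the wild type arrays on that scale. The subtraction raised every gene by the same amount in Akita replicate 1, where Xdh then stood at 0.37 and Maob at 0.27. It therefore shows nothing particular to Cyba, and the part of macrophages in the values of Cyba and the other genes was not tested. Of 10 neutrophil markers, 7 lay under the filter on dim genes, and the other 3 summed to a linear signal of 74.1 to 84.1 in Akita and 74.5 to 78.9 in wild type hearts.

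Of the other cell type lists given here, the smooth muscle and pericyte list had Akita replicate 1 below and Akita replicate 3 above every wild type array, as Cybb, Nox4 and Maoa did. The median of 8 smooth muscle and pericyte markers lay at -0.25 and 0.18 in Akita replicates 1 and 3, against 0.00, 0.00 and -0.02 in wild type replicates 3, 4 and 5. Their summed linear signal was 4982 to 5802 in Akita and 5152 to 5319 in wild type hearts, and 0 of 8 passed, with 5 higher and 3 lower. Rgs5, a pericyte gene, and Acta2, smooth muscle actin, had log2 differences of 0.13 and -0.14. The median of 9 fibroblast markers lay at 0.04 and 0.58 in Akita replicates 1 and 3, within 0.07 of 0 in each wild type array, with 8 of 9 higher and 0 past the threshold (summed signal 8494 to 10603 in Akita and 7798 to 8377 in wild type hearts). Lum and Dpt, matrix protein genes, had log2 differences of 0.58 and 0.42 (limma adjusted p = 0.209 and 0.254). All 5 atrial markers lay higher in the Akita mean with 0 past the threshold, Nppa, the atrial natriuretic peptide gene, by 0.92. They stood highest in Akita replicate 3, where Bmp10 was at 10.83, against 5.71 in Akita replicate 1, and 4.63, 4.64 and 5.18 in wild type replicates 3, 4 and 5; the summed signal of the 5 markers was 5179 to 16046 in Akita and 4346 to 4684 in wild type hearts. Not every atrial marker was higher in both Akita arrays. Sln had 6.71 and 10.85 in Akita replicates 1 and 3, against 7.74, 8.13 and 7.95 in wild type replicates 3, 4 and 5. Myl7 had 6.55 and 10.36, against 7.83, 8.10 and 8.08 in the same order. Both thus had Akita replicate 1 below and Akita replicate 3 above every wild type array. The part of these cell types in the values of Cybb, Nox4 and Maoa was not tested.

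**Figure D4:**
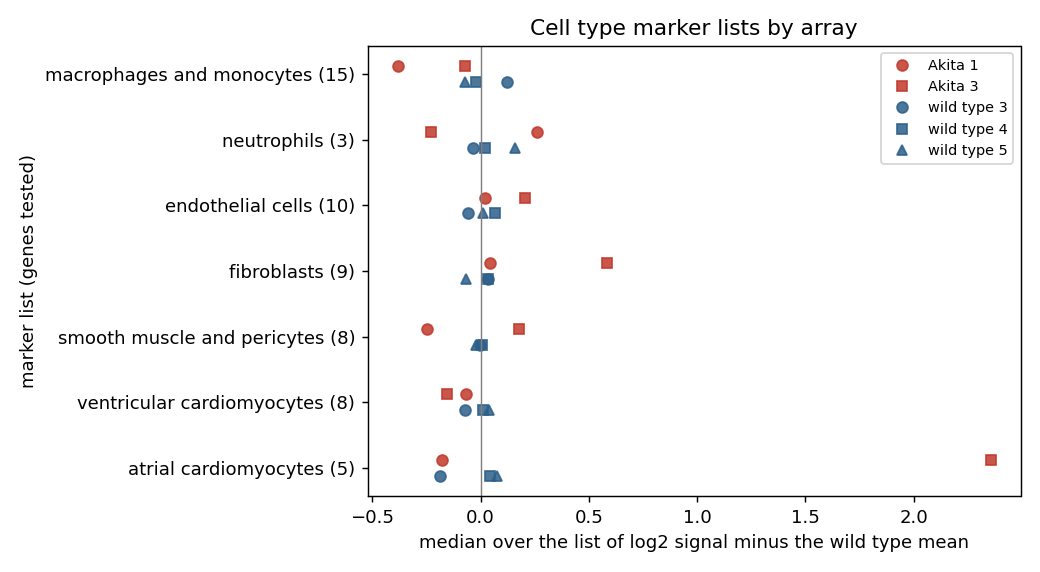
Median over each cell type marker list of the log2 signal minus the wild type mean, with Akita arrays in red above wild type arrays in blue and the number of markers tested in brackets. Macrophage markers lie lowest in Akita replicate 1 (-0.38), and fibroblast, smooth muscle and atrial markers lie higher in Akita replicate 3 than in Akita replicate 1.

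For Xdh and other genes carried by endothelial cells, the 10 endothelial markers had a median difference of 0.12, with 6 higher, 4 lower and 0 past the threshold. Their summed linear signal was 9341 to 9942 in Akita and 8111 to 8688 in wild type hearts. By array, the list median was 0.02 and 0.21 in Akita replicates 1 and 3, against -0.06, 0.065 and 0.01 in wild type replicates 3, 4 and 5. Only Akita replicate 3 thus lay outside the wild type arrays. Xdh, at -0.14, lay the other way from the median difference of the list, without passing a test. It lay on the same side as the 4 lower markers, among them Tek (-0.215, without overlap).

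The rest of the NADPH oxidase family and its assembly factors showed no call either. Of 11 genes tested, 4 lay higher, 7 lower and 0 passed, and the median difference was -0.03, the same as over all genes tested to 2 decimals. The smallest p belonged to Vav1, a blood cell exchange factor that activates Rac, with 4.65 and 5.0 in Akita replicates 1 and 3, against 5.32, 5.21 and 5.31 in wild type replicates 3, 4 and 5 (log2 difference -0.46, SE 0.14, limma adjusted p = 0.237). Duox2 and Duox1, the dual oxidases of epithelia, differed by 0.30 and 0.16, and Sh3pxd2b, an adaptor related to the p47phox organiser, by 0.19. The wild type mean of Duox2, 4.19, was close to the filter value. The Rac GTPases, which complete the active oxidase, differed by -0.05 (Rac1) and -0.09 (Rac2, the blood cell form). Nox1 lay under the filter on dim genes, at 3.48 and 3.51 in Akita and at 3.05, 3.73 and 3.47 in wild type hearts.

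Other enzymes that release oxidants moved in both directions. Of 19 tested, 12 lay higher and 7 lower, 0 passed, and the median difference was 0.03. The 12 include Epx and Nos1, whose wild type means of 3.94 and 4.06 lay under the filter value of 4.064. Both were tested only because of their Akita values and could not have counted as lower, so the counts and median of this list are a description. Alox5, the leukocyte lipoxygenase that starts leukotriene synthesis, had 6.70 and 6.91 in Akita replicates 1 and 3, against 7.48, 7.51 and 7.37 in wild type replicates 3, 4 and 5. The groups did not overlap, and the log2 difference was -0.65 (SE 0.12, limma adjusted p = 0.115). Alox15, another lipoxygenase, differed the other way, by 0.52 (SE 0.12, adjusted p = 0.165), from a wild type mean of 4.30 that is close to the filter value. Epx, eosinophil peroxidase, had 4.49 and 4.17 in Akita replicates 1 and 3, against 3.95, 3.92 and 3.94 in wild type replicates 3, 4 and 5. All its wild type values lay under the filter value, so it was tested only because of its Akita values and its difference is given as a description. Nos3, the endothelial nitric oxide synthase, had 6.77 and 7.34 in Akita replicates 1 and 3, against 7.47, 7.45 and 7.38 in wild type replicates 3, 4 and 5 (log2 difference -0.38, adjusted p = 0.393), with Akita replicate 1 farthest down as in Cybb. Aox1, the aldehyde oxidase related to xanthine dehydrogenase, differed by -0.08.

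Genes upstream of Xdh and beside the monoamine oxidases showed no call. Of 12 genes of purine breakdown and salvage, 4 lay higher and 8 lower, 0 passed, and the median difference was -0.07. Ampd3, an AMP deaminase, had 8.19 and 8.13 in Akita replicates 1 and 3, against 8.67, 8.40 and 8.40 in wild type replicates 3, 4 and 5 (log2 difference -0.33, limma adjusted p = 0.327). Slc29a1, the nucleoside transporter, differed by -0.26 (adjusted p = 0.356), while Nt5e, the ecto-nucleotidase that makes adenosine, differed by 0.26 and guanine deaminase, Gda, by -0.13. Of 9 genes of amine supply and aldehyde removal, 4 lay higher, 5 lower and 0 passed, with a median of -0.10. Ddc, the aromatic amino acid decarboxylase, had 5.20 and 5.49 in Akita replicates 1 and 3, against 5.68, 5.72 and 5.73 in wild type replicates 3, 4 and 5 (log2 difference -0.37, adjusted p = 0.289). Th and Slc6a2, the noradrenaline synthesis and reuptake genes, differed by 0.25 and 0.24. In both, Akita replicate 1 lay above the wild type range (4.75 for Th, 5.08 for Slc6a2) and Akita replicate 3 within it. Th had a wild type mean of 4.26, close to the filter value. Aldh2, which clears the aldehydes that monoamine oxidases form, was at 10.74 in both Akita hearts, against 11.21, 10.87 and 10.79 in wild type replicates 3, 4 and 5 (adjusted p = 0.564).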

How the data were processed

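Per the labels' protocols, heart RNA was labelled with a whole-transcript biotin kit. The table deposited by the authors holds a log2 signal for each probe set on each array, which came from Affymetrix Expression Console per the submitters' processing notes. The algorithm is not given in the sources. The log base was read from the range, 1.27 to 13.66. Any scaling between arrays by the authors would hide a change shared by most genes.

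Of 41345 probe sets, 23521 had exactly 1 gene symbol, 1814 had several and 16010 were not listed. The brightest probe set represented each gene, and genes with a mean below the 30th percentile were dropped. The Akita group was compared with wild type by limma 3.58.1 in R 4.3.3 (two-sided, Benjamini-Hochberg over 15528 genes, threshold 0.05), and SEs, intervals and p-values come from that fit, which was tested on simulated data. The labels name no batch. Lists were described by counts and medians only. Named genes were the 8 members, the up to 4 pathway genes of smallest p per list with Nox1, Rac1, Rac2 and Aox1, 2 markers of lists that moved with a member, and the 2 genes nearest to each member whose values spanned at least 0.5 log2 units. The members and lists were chosen with earlier results of these data known, and several list genes were not analysed here. Alternatives were other dim-gene filters, averaged probe sets, renewed quantile normalization, centring, array weights, a robust prior with an intensity trend, a threshold of 0.1 and each array left out. Promoters come from RefSeq. Python 3.11.15 with pandas 2.3.3 drew the figures in matplotlib 3.10.9.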

Additional observations from a re-analysis of the deposited data

How the results depend on the processing

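None of the 8 oxidant source genes passed the threshold under any of the 14 alternatives (0 in each), with the lowest adjusted p, 0.0963, for Cybb without Akita replicate 3. Cyba, Ncf4 and Xdh kept a difference below 0 in every alternative that tested them, from -0.47 to -0.18, -0.25 to -0.08 and -0.27 to -0.01; a filter at the 50th percentile left out Ncf4, Nox4 and Maoa. Over the 8 genes, the sign was kept in 94 cases and turned in 15. The cases kept include settings that could not turn a sign. Other filters, averaged probe sets, the robust prior with an intensity trend and the threshold of 0.1 left every difference as it was. With arrays left out, where a lone Akita array was assumed to vary as the wild type arrays did, differences ran from -0.81 to 0.34 for Cybb, -0.19 to 0.12 for Ncf1, -0.33 to 0.37 for Nox4, -0.28 to 0.45 for Maoa and -0.11 to 0.11 for Maob. Quantile normalization turned Nox4 (-0.068) and Maob (0.034), array weights turned them too (-0.011 and 0.012), centring on array medians turned Nox4 (-0.025), and centring over the genes tested, chosen after seeing the data, turned Maob (0.084) and Ncf1 (0.056). The cause of these turns was not tested. With all arrays kept, each of these differences was smaller than its SE, while some values with an array left out were larger than theirs, such as 0.34 (SE 0.12) for Cybb without Akita replicate 1. Over all genes, 33 passed higher and 18 lower. These counts were 68 higher with no filter, 20 and 28 with a filter at the 50th percentile, 60 and 137 with an intensity trend, 20 and 8 with array weights, 47 lower at a threshold of 0.1, 25 higher and 5 lower with centring over the genes tested, and 9 to 37 higher and 0 to 3 lower with an array left out. That centring moved the median of all genes tested to 0.06, against -0.03 as deposited, and the cause was not tested. Of the list medians, 182 moved by less than the spread between arrays and 26 by more, and the neutrophil and lymphocyte lists had no value with a filter at the 50th percentile. No paired analysis was run, because the labels name no pairs. The groups share only 1 replicate number, which is not said to mark a pair. Signals of Nox4, Maoa and Ncf4 lay about 1 log2 unit above the filter value, where background signal limits what can be resolved.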
